A study of Mus musculus with 6 samples.

Results

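Fos, Ier3 and Klf6 are immediate-early genes, and their response to growth hormone (GH) was followed here in mouse bone. They were represented by 5 of the 21446 rows of the array table, 2 rows for Fos, 1 for Ier3 and 2 for Klf6, taken as all rows whose annotation held only 1 of these symbols. All 5 rows had a value on each of the 6 arrays. The 3 genes were chosen by measured GH over PBS ratios of these same arrays, so their own values are given as a description, without a test.

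All animals were of the strain C57BL/6J-Ghrhr<lit> (lit/lit) and aged 4 weeks. The lit mutation lies in the pituitary receptor that triggers GH release, so these mice are deficient in GH, and it was shared by GH-injected and control mice. GH was injected under the skin once, at 4 mg per kg of body weight, and controls received phosphate-buffered saline (PBS). Each sample pooled bone RNA from 2 animals, and each array compared a GH pool in the dye Cy5 with a PBS pool in the dye Cy3, on 3 arrays at 24 hours (replicates 4, 5 and 6) and on 3 arrays at 6 hours (replicates 1, 2 and 3). All values are log2 of the ratio of GH over PBS, a direction that is likely from the dyes and sample names but is not stated in the table. No array had its dyes swapped, so a dye effect on a gene and the GH effect cannot be told apart in a single time's ratio. Ratios show no level, so neither the presence of bone cell markers nor the expression level of any gene was checked. In such bulk bone RNA, fewer cells of a type and less RNA per cell cannot be told apart.

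Immediate-early genes are transcribed within minutes of a stimulus without the need for new protein, and their short-lived transcripts usually decline within hours. GH binds a receptor that activates the kinase JAK2, which in turn activates STAT transcription factors and the ERK kinase cascade. ERK acts on ELK proteins bound with SRF at the serum response element of Fos. Fos protein pairs with Jun proteins to form the transcription factor AP-1 and is required in mice for the formation of osteoclasts, the cells that resorb bone. Ier3 encodes a short-lived protein induced by growth factors and by NF-kappaB that takes part in ERK signalling and cell survival. Klf6 encodes a zinc finger transcription factor of the Kruppel-like family.

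The promoters of the 3 genes are shown because the rapid induction of immediate-early genes is received at the promoter; the serum response element of Fos lies further upstream than the window. RefSeq held all 3, each on the + strand of build GRCm38.p6, and the 250 bases before the annotated start were searched on both strands for 9 motifs. The windows are chr12:85473640-85473889 for Fos, chr17:35821463-35821712 for Ier3 and chr13:5861239-5861488 for Klf6, and capitals mark every motif match.
Fos: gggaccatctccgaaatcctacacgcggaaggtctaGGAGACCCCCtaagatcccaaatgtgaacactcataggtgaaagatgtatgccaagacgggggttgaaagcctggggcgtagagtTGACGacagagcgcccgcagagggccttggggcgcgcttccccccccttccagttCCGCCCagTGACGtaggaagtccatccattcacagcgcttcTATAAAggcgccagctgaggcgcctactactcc
Ier3: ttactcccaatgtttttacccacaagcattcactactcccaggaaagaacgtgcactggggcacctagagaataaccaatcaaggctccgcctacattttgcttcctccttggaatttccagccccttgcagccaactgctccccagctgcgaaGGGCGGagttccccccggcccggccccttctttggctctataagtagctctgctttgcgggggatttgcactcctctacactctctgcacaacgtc
Klf6: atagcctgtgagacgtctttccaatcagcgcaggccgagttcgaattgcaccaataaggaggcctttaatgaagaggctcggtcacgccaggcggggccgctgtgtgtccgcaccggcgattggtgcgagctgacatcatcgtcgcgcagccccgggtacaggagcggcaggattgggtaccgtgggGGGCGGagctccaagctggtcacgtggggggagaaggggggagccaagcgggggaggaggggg
The Fos window held the cyclic AMP response element core TGACG at 66 to 62 and at 129 to 125 bases before the start, a core present in 17.8% of 32851 promoter windows. It also held TATAAA at 33 to 28 bases (12.4% of windows), the SP1 motif GGGCGG on the - strand at 74 to 69 bases (32.7%) and a match to the NF-kappaB consensus on the - strand at 214 to 205 bases (5.0%). The Ier3 window held GGGCGG at 96 to 91 bases and the Klf6 window held it at 63 to 58 bases, with no other match in either. No window held the CArG box (1.47% of all windows), the full response element TGACGTCA, which contains the core (1.55%), the AP-1 motif TGANTCA (6.75%), the STAT motif TTCNNNGAA (7.02%) or the EGR motif GCGNGGGCG (4.7%), which says only that these letters were not in these windows. The share of G and C was 58.4% for Fos, 54.4% for Ier3 and 64.8% for Klf6, against a median of 52.4% over all windows.

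Fos and Ier3 had mean ratios above 1 at both times, with the higher mean at 24 hours, whereas Klf6 had mean ratios below 1 at both times. Fos averaged a 1.88-fold ratio at 24 hours and a 1.38-fold ratio at 6 hours, Ier3 1.69-fold at 24 hours and 1.22-fold at 6 hours, and Klf6 0.847-fold at 24 hours and 0.768-fold at 6 hours. On the log2 scale the means were 0.91 ± 0.05 at 24 hours and 0.46 ± 0.41 at 6 hours for Fos, 0.76 ± 0.43 and 0.28 ± 0.29 for Ier3 at the same times, and -0.24 ± 0.42 and -0.38 ± 0.27 for Klf6 (SD, n = 3 arrays each; rows of a gene averaged). Single arrays weighed heavily in these means: that of Klf6 at 24 hours was -0.02 without replicate 6 and -0.44 without replicate 5, and that of Fos at 6 hours was 0.24 without replicate 2. That of Ier3 at 6 hours was 0.15 without replicate 3 and 0.44 without replicate 1.

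The 2 Fos rows, one annotated with the RefSeq mRNA and the other with other GenBank sequences, are given separately. The Fos row of other GenBank sequences had log2 ratios of 1.01, 0.82 and 0.80 on the 24-hour arrays (replicates 4, 5 and 6), against -0.30, 0.51 and 0.37 on the 6-hour arrays (replicates 1, 2 and 3). All 24-hour values of this row lay above all of its 6-hour values, beside 4.9% of complete features, for which rows of a gene were averaged. Since these ratios chose the gene, nothing is read from that order. The only value below 0 was that of replicate 1. Its means were 0.88 ± 0.12 (1.84-fold) at 24 hours and 0.19 ± 0.43 (1.14-fold) at 6 hours (SD, n = 3), a difference of 0.69.

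The Fos row of the RefSeq mRNA had log2 ratios of 0.70, 1.09 and 1.04 at 24 hours, against 0.45, 1.29 and 0.45 at 6 hours. All 6 values were above 0, and the times overlapped because replicate 2, at 6 hours, held the highest value. Its means were 0.95 ± 0.21 (1.93-fold) at 24 hours and 0.73 ± 0.48 (1.66-fold) at 6 hours (SD, n = 3), a difference of 0.21. The rows therefore differed in the size of the step between the times, 0.69 against 0.21, more than in their 24-hour means, 0.88 and 0.95.

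Array by array, the Fos RefSeq row minus the other Fos row was -0.31, 0.27 and 0.24 at 24 hours, against 0.76, 0.79 and 0.09 at 6 hours. The widest gaps between the rows were thus on replicates 1 and 2 of the 6-hour arrays. Over 6 arrays the row means were 0.84 and 0.53, a range of 0.31; of 1430 genes with 2 complete rows, 35.7% had a smaller range (median 0.44, quartiles 0.20 and 0.81).

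With its rows averaged, Fos had 0.86, 0.96 and 0.92 at 24 hours, against 0.08, 0.90 and 0.41 at 6 hours. The averaged 24-hour values lay closer together (SD 0.05) than those of either row alone (SD 0.12 and 0.21). Replicate 4 was the highest of the 3 in one row and the lowest in the other, which averaging evened out. The 6-hour values spread widely (SD 0.41), and the times overlapped only in that replicate 2 lay above replicate 4. The difference of 0.45 had a limma standard error of 0.24 and was 0.26 without replicate 1.

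Ier3 had log2 ratios of 1.21, 0.36 and 0.70 at 24 hours, against -0.03, 0.33 and 0.55 at 6 hours. Replicate 4 stood highest and replicate 1 lowest, and replicate 5 of the 24-hour arrays lay below replicate 3 of the 6-hour arrays, so the times overlapped. The difference between the times was 0.47, with a limma standard error of 0.27, and was 0.24 without replicate 4. Ier3, with 1 row, had an SD of 0.43 at 24 hours and 0.29 at 6 hours. Fos had 0.05 and 0.41 at these times as an average of 2 rows, whose own SDs at 24 hours were 0.12 and 0.21. The spreads are therefore not alike in kind, and their difference was not tested.

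The Klf6 row 1 had log2 ratios of -0.18, 0.24 and -0.47 at 24 hours, against 0.20, -0.27 and -0.62 at 6 hours. Both times had 1 array above 0 and 2 below it, and they overlapped over most of their ranges. Its means were -0.14 ± 0.36 at 24 hours and -0.23 ± 0.41 at 6 hours (SD, n = 3).

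The Klf6 row 2 had log2 ratios of -0.20, 0.07 and -0.89 at 24 hours, against -0.34, -0.74 and -0.51 at 6 hours. Only replicate 5 was above 0, and the lowest value was that of a 24-hour array, replicate 6. Its means were -0.34 ± 0.49 at 24 hours and -0.53 ± 0.20 at 6 hours (SD, n = 3). With rows averaged, the Klf6 difference of 24 minus 6 hours was 0.14, with a limma standard error of 0.27; it was -0.06 without replicate 5 and 0.36 without replicate 6. The rows of Klf6 lay 0.25 apart over 6 arrays, and 30.8% of the 2-row genes had a smaller range.

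**Figure D1:**
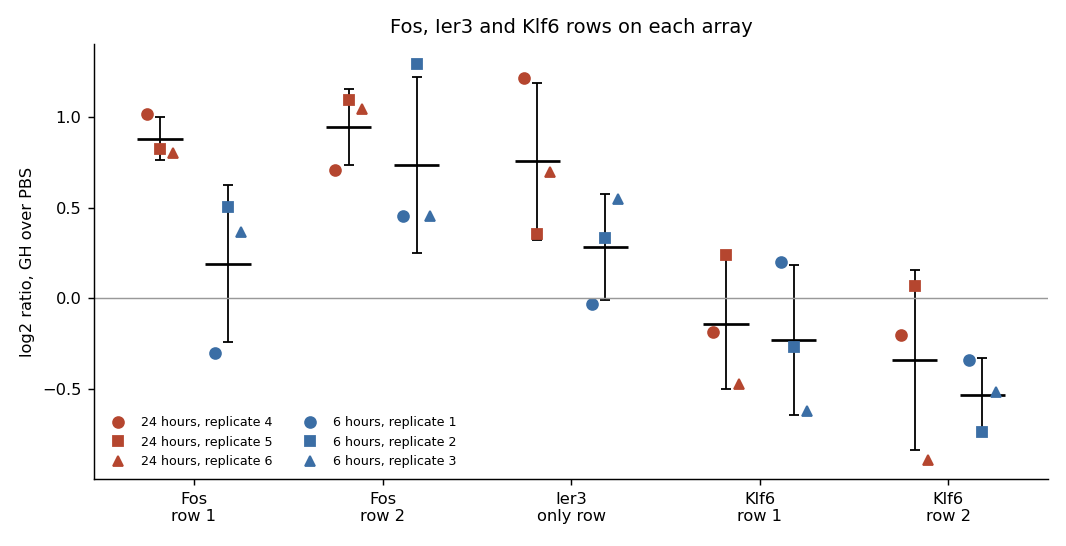
Log2 ratio of GH over PBS (vertical axis) of each row of Fos, Ier3 and Klf6, with the 24-hour arrays (red) left of the 6-hour arrays (blue); symbols are arrays, bars the mean and SD of 3 arrays. The Fos rows sit at 0.70 to 1.09 at 24 hours and spread over -0.30 to 1.29 at 6 hours, while the Klf6 rows lie on both sides of 0.

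Because the arrays differed in their spread, with an SD over all values between 0.47 (replicate 1) and 0.91 (replicate 6), each value was also placed among all values of its own array. The Fos RefSeq row lay at percentiles 84.6, 95.4 and 89.5 on the 24-hour arrays and at 87.9, 95.7 and 77.7 on the 6-hour arrays. On this scale its place was similar at both times. The other Fos row lay at 91.3, 91.7 and 84.4 at 24 hours, against 19.2, 81.6 and 73.2 at 6 hours, with replicate 1 far below the rest.

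Ier3 lay at percentiles 94.1, 78.4 and 81.5 at 24 hours, against 46.9, 74.2 and 81.6 at 6 hours. Of these 6 places, 4 fell within a band from 74.2 to 81.6, with replicate 4 above it and replicate 1 below it. The Klf6 rows ranged from 13.6 to 71.9 at 24 hours and from 12.2 to 70.6 at 6 hours. Both of these highest places were held by row 1, on replicates 5 and 1.

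**Figure D2:**
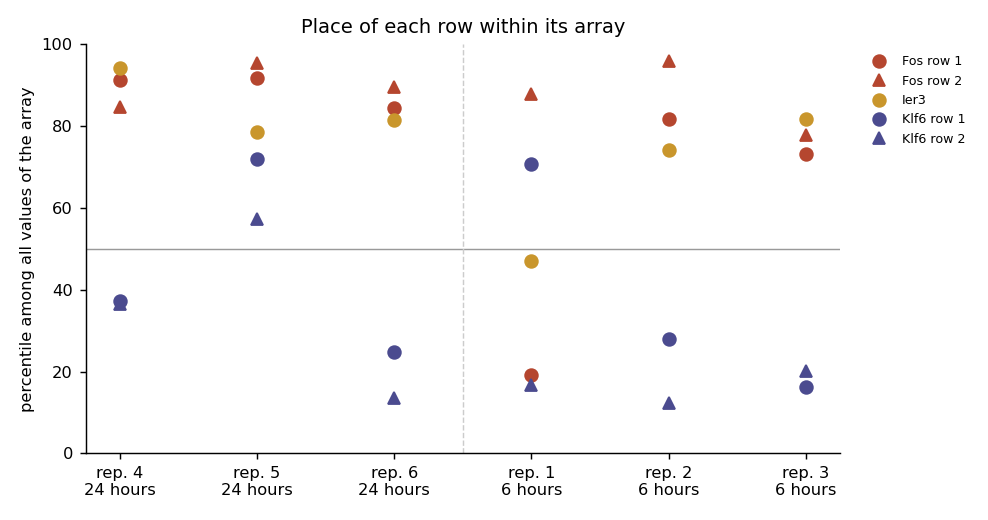
Percentile of each row among all values of its array (vertical axis), by array, with the 24-hour arrays left of the dashed line and the 6-hour arrays right of it. The Fos RefSeq row (row 2) stays between 77.7 and 95.7 on all 6 arrays, and the other Fos row (row 1) drops to 19.2 on replicate 1.

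Compared within arrays, Fos was higher than Klf6 on 6 of 6 arrays, by a mean of 1.15 at 24 hours and 0.84 at 6 hours on the log2 ratio scale. Ier3 was also higher than Klf6 on 6 of 6 arrays, by 1.00 at 24 hours and 0.66 at 6 hours. Fos was higher than Ier3 on 4 of 6 arrays, by 0.16 at 24 hours and 0.18 at 6 hours, and Ier3 was higher on replicates 4 and 3. The order Fos, Ier3, Klf6 held for the means of both times, but Fos and Ier3 did not differ beyond their spread.

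A limma fit over all 16678 features, with Benjamini-Hochberg adjustment and a threshold of 0.05, called 12% of features higher with GH at 24 hours and 8.62% lower. At 6 hours it called 2.91% higher and 0.702% lower, and for the difference of 24 minus 6 hours 0% in either direction, with 506 features at an unadjusted p under 0.05. Of Fos, Ier3 and Klf6, 2 of 3 were among the features called higher at 24 hours, Fos and Ier3, and 0 of 3 were called at 6 hours or in the difference. Since these ratios chose the genes, nothing is read from those counts. Every 24-hour call given here, rests on replicate 6, without which limma called 0 features at 24 hours (4124 at an unadjusted p under 0.05). At 6 hours limma likewise called 0 features without replicate 2, 3 or 4 (1923, 2018 and 3883 at an unadjusted p under 0.05). Replicate 4 is a 24-hour array, so leaving it out changed no 6-hour mean. It enters the 6-hour test only through the spread that both times share and the choice of features tested. The Fos mean stood at percentile 91.5 of all feature means at 24 hours and 84.6 at 6 hours, that of Ier3 at 88.7 and 76.4 for the same times, and that of Klf6 at 31.7 and 17.96. All 3 differences were positive, at percentiles 93.5 for Fos, 94.3 for Ier3 and 69.2 for Klf6. Of 15131 features complete on all arrays, 4.9% had every 24-hour value above every 6-hour value, and none of the 3 genes was among them.

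The scan file names began with either of 2 prefixes, one on all 6-hour arrays and on replicate 5, the other on replicates 4 and 6. Within the first prefix the 24-hour response rests on replicate 5 alone. There Fos had 0.96 at 24 hours, against a 6-hour mean of 0.46, and Ier3 had 0.36 against 0.28. Klf6 had 0.15 at 24 hours in that array, against -0.38 at 6 hours. With the prefix as a covariate, where the 24-hour estimate rests on that same array, only the sizes are given. The differences were then 0.50 for Fos, 0.07 for Ier3 and 0.53 for Klf6, in place of 0.45, 0.47 and 0.14.

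Of 15 other proteins of the AP-1 and related bZIP families, which include both partners and relatives of Fos, 7 were measured. At 24 hours 0 of 7 passed the test in either direction, beside 12% of all features higher and 8.62% lower, and 0 of 7 passed at 6 hours, beside 2.91% higher and 0.702% lower; with 7 genes these counts are near the shares of all features. Their median log2 ratio was 0.01 at 24 hours and -0.04 at 6 hours, beside medians of 0.00 and -0.02 over all features at these times. At an unadjusted p under 0.05, 2 of the 7 differed at 24 hours in limma and 1 did at 6 hours. Of all 16678 features, 6756 and 4443 did so at these times. The 6-hour and unadjusted counts of the lists below stand beside these same shares of all features.

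Jun, the main dimer partner of Fos in AP-1, had log2 ratios of -0.69, -0.81 and -0.22 at 24 hours, against -0.56, -0.15 and -0.74 at 6 hours. All 6 values were below 0, on the other side of 0 from Fos, and the limma adjusted p was 0.0580 at 24 hours and 0.142 at 6 hours. Fosl1, which encodes the Fos relative FRA1, had a mean of 0.37 ± 0.15 (SE) at 24 hours and 0.11 at 6 hours, with a limma adjusted p of 0.120 at 24 hours. The means at 24 hours and 6 hours were -0.09 and -0.04 for Fosl2 (FRA2), -0.41 and -0.23 for Atf3, and 0.01 and 0.07 for Atf7. Those of the small MAF protein gene Mafg were 0.01 and -0.04, averaged over rows that disagreed, with 24-hour means of -0.36 and 0.38.

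Atf2, whose protein pairs with Jun, had 3 rows that disagreed. Their means at 24 hours were 0.89, -0.59 and -0.03, and the average of the rows was 0.20 at 24 hours and 0.29 at 6 hours. Taken alone, the first of these rows passed the limma test at 24 hours (adjusted p = 0.0195). Fosb, Junb, Jund, Batf, Batf3, Jdp2, Maff and Mafk were not analysed here.

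Other immediate-early genes lay on both sides of 0. Of 60 listed, 40 were measured. At 24 hours 6 of 40 rose (15%, beside 12% of all features) and 0 fell (beside 8.62%). At 6 hours 1 of 40 rose (beside 2.91%) and 0 fell (beside 0.702%). The median log2 ratio was 0.26 at 24 hours and 0.08 at 6 hours. Above 0 were 23 of 40 at 24 hours and 25 at 6 hours, beside 50.22% and 48.19% of all features. None of these 40 was called in the difference between the times. Of the 47 AP-1 and immediate-early genes together, 0 had a 24-hour mean above that of Fos, 1 above that of Ier3 and 37 above that of Klf6. At 6 hours 6 were above Fos, 13 above Ier3 and 43 above Klf6. These places describe genes that the same ratios chose, and the order would turn round if the ratios ran from PBS over GH.

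Ets2, an ETS transcription factor activated by ERK, was the 1 that rose at both times. It had log2 ratios of 0.71, 0.59 and 0.78 at 24 hours, against 0.71, 0.48 and 0.58 at 6 hours (limma adjusted p 0.0152 at 24 hours and 0.0469 at 6 hours). With its 2 rows averaged, all 6 arrays lay between 0.48 and 0.78, but on replicate 1 the rows had 0.03 and 1.40. Taken alone, both rows passed the limma test at 24 hours (adjusted p 0.037 and 0.041). Neither row passed alone at 6 hours (limma adjusted p 0.26 and 0.060). Klf2, a Kruppel-like factor of endothelial cells and lymphocytes, rose at 24 hours (0.54 ± 0.11, SE, limma adjusted p = 0.0228), with 0.10 at 6 hours.

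Ccn2, which encodes connective tissue growth factor, had log2 ratios of 1.22, 0.68 and 0.52 at 24 hours, against 0.04, -0.12 and -0.74 at 6 hours. Its times did not overlap (beside 4.9% of complete features in this direction), and it rose at 24 hours (limma adjusted p = 0.0390). Its difference of 1.08 ± 0.29 (SE) had a limma adjusted p of 0.982. It was the only gene of the 47 with a 24-hour mean above that of Ier3. Csrnp1, an AXIN1-induced nuclear protein named after its values were seen, rose at 24 hours (0.59 ± 0.15, adjusted p = 0.0404) and had 0.68 at 6 hours. Tnfaip3 and Nfkbia, inhibitors of NF-kappaB, completed the 6 and are given with that pathway.

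Several classical members, also named after their values were seen, did not pass the limma test. Egr1, the zinc finger gene induced beside Fos by serum, had a mean of 0.04 at 24 hours and 0.36 at 6 hours. The means at 24 hours and 6 hours were -0.38 and -0.18 for Myc and -0.32 and -0.08 for Ier2. Ier5 had 0.47 at 24 hours and 0.29 at 6 hours. Dusp1, a phosphatase that switches off MAP kinases, had 0.55 at 24 hours and 0.19 at 6 hours. Mcl1, a survival gene, had -0.64 at 24 hours (limma adjusted p = 0.0502).

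The count of 6 depended on single arrays. It was 12 without replicate 1, 2 without replicate 2 or replicate 5, and 0 without replicate 4 or replicate 6. It was 3 with the arrays scaled to 1 spread, 2 after quantile normalization and 0 with the prefix as a covariate.

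**Figure D3:**
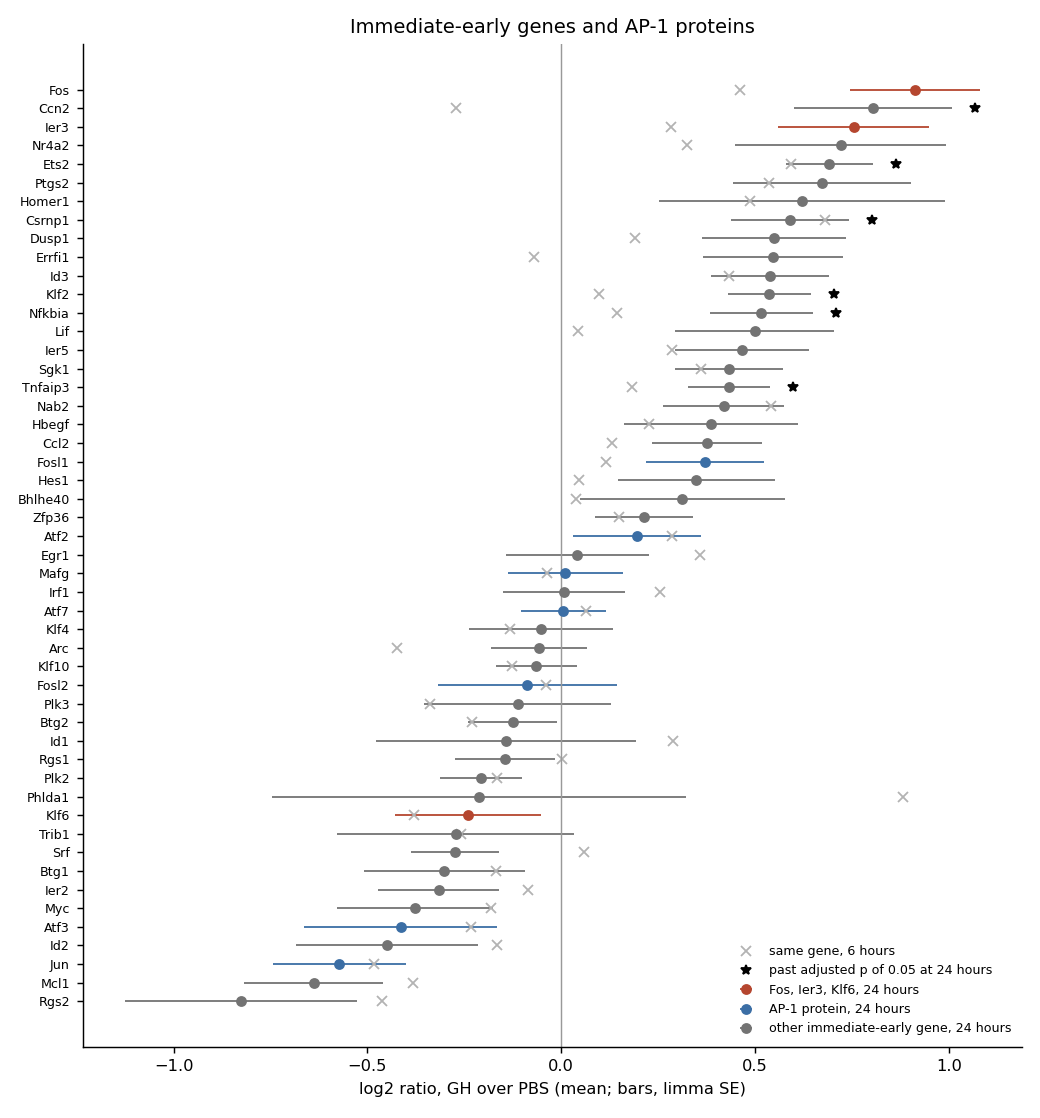
Mean log2 ratio of GH over PBS (horizontal axis) of Fos, Ier3 and Klf6 (red), 7 other AP-1 proteins (blue) and 40 other immediate-early genes (grey), sorted by their 24-hour mean; points with limma SE bars are 24 hours, crosses 6 hours, and stars the 6 tested genes past the adjusted p of 0.05 at 24 hours. Fos stands at 0.91 and Ier3 at 0.76, below Ccn2 at 0.80, while Klf6 lies at -0.24 among the genes below 0; stars were not drawn for these 3.

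Genes of the path from growth factor receptors to Fos transcription were measured for 14 of 29, with 1 of 14 higher and 1 of 14 lower at 24 hours (beside 12% and 8.62% of all features), and 0 passing at 6 hours in limma (1 at an unadjusted p under 0.05). Their median was -0.15 at 24 hours and 0.04 at 6 hours. Elk3, an ETS protein of the ternary complex that binds with SRF, rose at 24 hours (0.50 ± 0.14, SE, limma adjusted p = 0.0489), with 0.30 at 6 hours. Map2k1, the kinase MEK1 that activates ERK, fell to -1.08 ± 0.27 at 24 hours (adjusted p = 0.0372), and had -0.54 at 6 hours.

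Stat3, a STAT factor that acts on the Fos promoter, had 0.50 at 24 hours and 0.08 at 6 hours (limma adjusted p = 0.0527 at 24 hours). Egfr had -1.07 at 24 hours and -0.43 at 6 hours (limma adjusted p = 0.0722 at 24 hours). Srf itself, named after its values were seen, had -0.27 at 24 hours and 0.06 at 6 hours. Its 2 rows differed at 24 hours, with means of -0.52 and -0.03. Taken alone, the first Srf row passed the limma test at 24 hours (adjusted p = 0.0383) and the second did not.

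Among feedback inhibitors of ERK signalling, 12 of 17 were measured and 1 of 12 rose at 24 hours (beside 12% of all features) and 0 fell (beside 8.62%), while 0 passed at 6 hours in limma, where 1 had an unadjusted p under 0.05. Their median was 0.03 at 24 hours and -0.03 at 6 hours. That gene was Spry1, a Sprouty protein induced by growth factors, with log2 ratios of 0.60, 0.73 and 0.75 at 24 hours, against 0.04, 0.80 and 0.68 at 6 hours (limma adjusted p = 0.0346 at 24 hours). As for the Fos row of other GenBank sequences, replicate 1 was the low array. Its relative Spry4 had -0.76 at 24 hours and -0.42 at 6 hours (limma adjusted p = 0.0503 at 24 hours), Errfi1 0.55 and -0.07, and Ppp2ca -0.51 and -0.24 at the same times.

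NF-kappaB proteins and targets, listed because NF-kappaB induces Ier3, were measured for 16 of 24, with 4 of 16 higher and 1 of 16 lower at 24 hours, beside 12% and 8.62% of all features. At 6 hours 0 passed in limma, with 3 at an unadjusted p under 0.05. The median was 0.29 at 24 hours and 0.12 at 6 hours. Traf1, an adaptor of TNF receptors, had log2 ratios of 1.96, 1.66 and 1.40 at 24 hours, against 0.21, 0.69 and 0.64 at 6 hours. Its times did not overlap (beside 4.9% of complete features in this direction), and it rose 3.19-fold at 24 hours (limma adjusted p = 0.00821). The difference of 1.16 ± 0.22 (SE) had a limma adjusted p of 0.982.

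Tnfaip3 rose at 24 hours (0.43 ± 0.11, SE, limma adjusted p = 0.0364), as did Nfkbia (0.52 ± 0.13, adjusted p = 0.0408); both belong to the immediate-early list as well. The cytokine gene Il1b rose at 24 hours (0.87 ± 0.23, adjusted p = 0.0429). Rel, a subunit of NF-kappaB named after its values were seen, fell to -0.59 ± 0.15 at 24 hours (adjusted p = 0.0429).

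Genes that AP-1 is known to act on in bone were measured for 16 of 24, with 0 of 16 higher and 2 of 16 lower at 24 hours (beside 12% and 8.62% of all features) and 0 passing at 6 hours in limma, where 4 had an unadjusted p under 0.05. Their median was 0.05 at 24 hours and 0.07 at 6 hours. Mmp9, a matrix protease of osteoclasts and neutrophils, had log2 ratios of -0.38, -0.27 and -0.66 at 24 hours, against 0.06, 0.11 and 0.01 at 6 hours. Its times did not overlap, and it fell at 24 hours (limma adjusted p = 0.0480). The Mmp9 difference of -0.50 ± 0.17 (SE) had a limma adjusted p of 0.982. The share of all features with such non-overlap in this direction was not counted. Hmox1, the haem-degrading enzyme, fell to -0.89 ± 0.22 at 24 hours (limma adjusted p = 0.0377), with -0.55 at 6 hours. Plau had 0.38 and Col1a2 -0.37 at 24 hours, against 0.10 and 0.04 at 6 hours, and neither passed.

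In the Kruppel-like family Klf6 lay near the lower end. Of 13 other members measured of 16 listed, 10 had a mean above that of Klf6 at 24 hours and 11 at 6 hours. The family median was 0.01 at 24 hours and -0.13 at 6 hours; 1 of 13 rose and 1 fell at 24 hours (beside 12% and 8.62% of all features), and 0 rose and 1 fell at 6 hours (beside 2.91% and 0.702%). Klf2 was the one that rose. Klf3, a repressor, had log2 ratios of -0.94, -0.69 and -1.36 at 24 hours, against 0.26, -0.69 and -1.06 at 6 hours, and fell at 24 hours (limma adjusted p = 0.0433).

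Klf8 had the highest means of the family, 0.93 at 24 hours and 0.97 at 6 hours, but did not pass (limma adjusted p = 0.0813 at 24 hours and 0.126 at 6 hours). Klf17 fell at 6 hours (-0.86, limma adjusted p = 0.0367), a value averaged over rows with means of -1.68 and -0.05. Its first row held 1 value at 24 hours, so that its rows were not averaged over the same arrays. Klf4, an immediate-early member of the family, had -0.05 at 24 hours and -0.13 at 6 hours.

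The means at 24 hours and 6 hours of the others that did not pass were 0.11 and -0.17 for Klf1, -0.37 and -0.23 for Klf5, 0.01 and 0.15 for Klf7, and 0.01 and -0.03 for Klf9. They were -0.06 and -0.13 for Klf10, 0.27 and 0.26 for Klf11, -0.33 and -0.18 for Klf13, and 0.18 and 0.20 for Klf16. The Klf7 value averaged 3 rows that disagreed, with 24-hour means of 0.53, -0.51 and 0.01. The family thus shared no single direction.

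**Figure D4:**
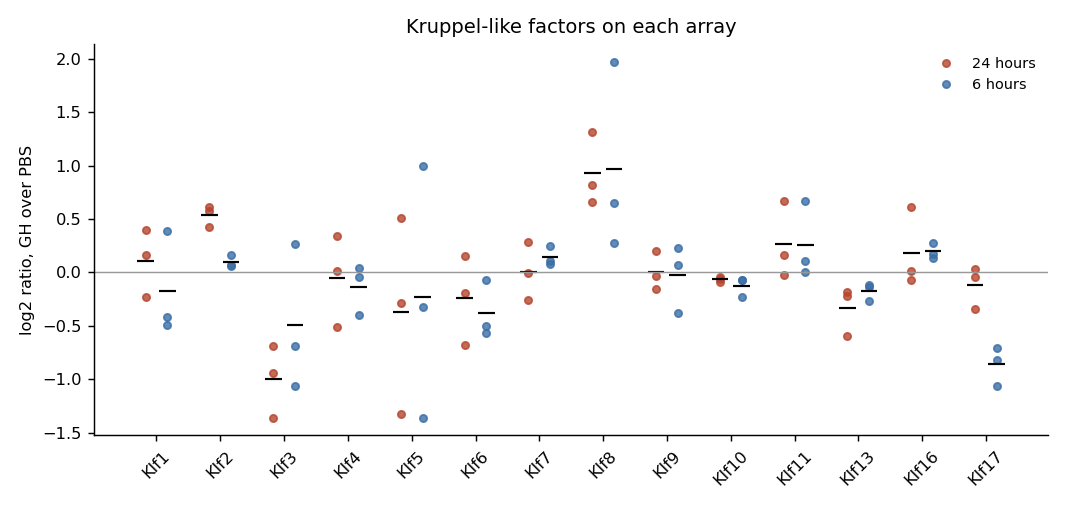
Log2 ratio of GH over PBS (vertical axis) of Klf6 and 13 other Kruppel-like factors on each array, with 24 hours (red) left of 6 hours (blue); points are arrays and bars means of 3 arrays. Klf6 averages -0.24 at 24 hours and -0.38 at 6 hours, Klf2 stands above 0 on the 24-hour arrays, and Klf3 stands below 0 on them.

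The genes with the most similar ratios were found by the root mean square difference over the 6 arrays, among 8406 named genes. For Fos they were Rab5b (0.127), P3h3 (0.137), Fip1l1 (0.142) and 4932438A13Rik (0.152), on the log2 ratio scale. For Ier3 they were Wdfy3 (0.112), Lrp12 (0.114), Lypd6 (0.125) and Fbxw21 (0.139). For Klf6 they were Syf2 (0.11), Ube2w (0.127), Trim39 (0.136) and Itpr2 (0.141). Ier3 ranked 434th of the 8406 for Fos (0.385), and Fos ranked 700th for Ier3. Klf6 ranked 6198th for Fos (1.1) and 6150th for Ier3 (0.988).

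Heat shock genes, as a sign of handling stress, and markers of other cell types in the bone are given beside these values. Of 9 heat shock genes measured of 12, 1 rose and 1 fell at 24 hours (beside 12% and 8.62% of all features), and 0 passed at 6 hours in limma (2 at an unadjusted p under 0.05), with a median of -0.10 at 24 hours and -0.01 at 6 hours. Hspb1 rose (1.46 ± 0.31, SE, limma adjusted p = 0.0271) and Hsp90aa1 fell to -0.96 ± 0.26 (adjusted p = 0.0451) at 24 hours; Hspb8 (0.48) and Hsph1 (-0.53) did not pass.

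Neutrophil markers were above 0 in 1 of 8 measured at 24 hours, beside 50.22% of all features. At this time 4 of 8 fell (beside 8.62% of all features), namely Mpo, Ms4a3, Cd177 and Lcn2. At 6 hours 0 of 8 neutrophil markers passed in limma (2 at an unadjusted p under 0.05). Their median on single arrays ranged from -1.64 to -0.64 at 24 hours and from -1.29 to 0.05 at 6 hours. Skeletal muscle markers were above 0 in 9 of 9 at both times, beside 50.22% of all features at 24 hours and 48.19% at 6 hours. Of these markers 0 of 9 passed in limma (1 at an unadjusted p under 0.05 at 24 hours and 5 at 6 hours). Their median on single arrays ranged from 0.10 to 0.90 at 24 hours and from 0.10 to 1.22 at 6 hours.

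Of 5 erythroid markers 1 rose at both times, Hbb-b2 (beside 12% of all features at 24 hours and 2.91% at 6 hours). Of 3 monocyte and macrophage, 6 endothelial and 5 osteoblast and osteocyte markers, 0 passed at either time in limma; at an unadjusted p under 0.05, 2 endothelial markers did at each time and 1 osteoblast marker did at 24 hours. The list medians were -0.34 at 24 hours and -0.37 at 6 hours for monocytes and macrophages, -0.02 and 0.11 for endothelium, and -0.13 and -0.03 for osteoblasts. The part of handling, of cell types and of the prefix in the values of Fos, Ier3 and Klf6 was not tested.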

How the data were processed

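The authors deposited 1 log2 ratio per row and array, 21446 rows; 100% of the values are log2 of a ratio with 2 decimals. Array medians lay between -0.0145 and 0.0286 and SDs differed between arrays. Extraction software, normalization and signal over background were not given in the sources used here. Per the labels, RNA was linearly amplified before labelling. The 6 arrays, with 18302 to 19961 values each, limit the precision. Of the rows, 11813 had 1 gene symbol in the platform annotation, 559 several and 9074 none; 11782 matched the mouse gene table by gene ID, and 0 symbols changed.

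Rows of 1 symbol were averaged per gene, others stayed single. Features needed values on at least 2 arrays per time, which left 16678 (8803 named). limma 3.58.1 (R 4.3.3; lmFit, eBayes) modelled the 6 arrays together with a mean for each time (4 residual degrees of freedom, prior 2.51, prior SD 0.28). Tests were two-sided, with Benjamini-Hochberg adjustment over all features. The pools are of separate animals per the series' design, so the spread holds animal and technical variation.

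Fos, Ier3 and Klf6 and all gene lists were chosen with earlier results of these data known. Named genes were these 3, every AP-1 and Kruppel-like member, up to 4 members of each other list with the smallest p at 24 hours, and the 4 most alike genes; exceptions are stated. On simulated ratios for the 24-hour comparison of 16678 features, 0%, 46% and 92% of changes of 0.5, 1 and 2 on the log2 scale were recovered. Far fewer features were changed in the simulation than the 3444 called at 24 hours in the data. Its adjusted threshold was therefore stricter, so these shares do not give the recovery in the measured ratios. Promoters came from RefSeq (GRCm38.p6), and no coordinates were taken from the array files. Alternatives covered centring, scaling, quantile normalization, single rows, missing values, exact zeros, array weights, robust empirical Bayes, each time alone, the scan file prefix and each replicate left out.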

Additional observations from a re-analysis of the deposited data

How the results depend on the processing

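Of 217 alternative values, 187 moved by less than the spread between replicates (counts by at most 1.5 times) and 30 moved by more. Part of the 187 could not move, since leaving out a 6-hour array cannot change a 24-hour mean, nor the reverse. The settings for missing values, exact zeros and robust empirical Bayes also left the means of Fos, Ier3 and Klf6 unchanged. The count of 187 is therefore no measure of stability. The sign changed for Klf6, which no test called: its 24-hour mean (-0.24) was 0.15 with the prefix, and its difference (0.14) was -0.06 without replicate 5. Features called at 24 hours (3444) were 30 when the prefix of the scan file names entered as a covariate, 2277 with each time fitted alone, and 0 to 4201 with replicates left out (0 in limma without replicate 6, with 4124 at an unadjusted p under 0.05). Features called at 6 hours (603) were 1782 with arrays scaled to 1 median absolute deviation, 1964 after quantile normalization, 4736 with array weights, 0 in limma with each time alone (4287 at an unadjusted p under 0.05), and 0 to 1501 with replicates left out, where 0 came without replicate 2, 3 or 4. In the difference, 3 were called with the prefix, in place of 0.

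The Fos mean at 24 hours, 0.91, was 0.86 after scaling and 0.83 after quantile normalization, and ranged from 0.83 to 0.96 over all alternatives; its 6-hour mean ranged from 0.19 to 0.73, set by which row was used. Fos was called at 24 hours in 12 of 15 settings, and at 6 hours in 1, array weights, where 4736 of 16678 features were called. At 24 hours it was not called with the prefix, where the estimate rests on replicate 5 alone, or without replicate 4 or 6. Without replicate 4 limma called 831 of 15937 features at 24 hours, and without replicate 6 it called 0 of 16055 (4124 at an unadjusted p under 0.05). Ier3 was called at 24 hours in 9 of 15 settings, and Klf6 in 0. Since these ratios chose the genes and the settings refit the same values, nothing is read from these counts. The difference between 24 and 6 hours with the prefix was 0.0727 for Ier3 (0.47 reported) and 0.535 for Klf6 (0.14 reported). Taken row by row, 1 AP-1 protein was called at 24 hours (Atf2). The count of other immediate-early genes at 24 hours (6) was 3 after scaling, 2 after quantile normalization, 0 with the prefix, 2 with each time alone and 0 to 12 with replicates left out. The cause of these shifts was not tested. No paired analysis was possible because the times share no replicate number. The signal behind the ratios is unknown, so weak rows could not be told from strong ones.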
